A study of Mus musculus with 11 samples.

Results

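The transcripts that define T, NK and B lymphocytes were followed through 11 whole-transcript Affymetrix arrays of fibroblasts sorted from mouse mammary glands and mammary tumours. The set held 36 gene symbols, of which 34 had a probe set with that symbol alone, out of 19938 genes measured: 17 of 19 T cell genes, all 8 NK and cytotoxic genes and all 9 B cell genes. Each of the 34 had 1 probe set. Lck and Tcf7 were not analysed here. Members were taken by symbol as standard genes of these cells, with no threshold on any value.

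All mice were females. Normal fibroblasts (arrays D2 and D5) came from mammary tissue of FVB/n mice at 8 weeks. The other arrays came from MMTV-PyMT mice, in which the mouse mammary tumour virus promoter drives the polyoma middle T oncogene in mammary epithelium, with no further treatment: hyperplasia at 4 weeks (D6, D7 and D12), carcinoma at 9 weeks (D3, D4 and D10) and advanced carcinoma, called late carcinoma in the labels, at 12 weeks (D8, D9 and D11). Each array held the pooled fibroblasts of 1 cohort of mice. Stage and age cannot be told apart, since each stage has its own age. Fibroblasts of carcinoma and advanced carcinoma together (6 arrays) are called CAFs, for cancer-associated fibroblasts, and were set against normal and hyperplasia fibroblasts together (5 arrays).

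T cells carry an antigen receptor whose signal passes through the CD3 chains, and the co-receptors CD4 and CD8 divide them into helper and cytotoxic cells. NK cells and cytotoxic T cells kill with granzymes and perforin, and B cells signal through an antigen receptor that rests on CD79A and CD79B. Naive lymphocytes gather in lymph nodes, and mammary fat pads hold such nodes. These genes are not markers of fibroblasts, and sorting for CD140a (PDGFRα) with exclusion of F4/80, to which the labels add EpCAM, used no antibody against lymphocytes or against the leukocyte antigen CD45. In bulk samples of this kind, fewer lymphocytes among the sorted cells and less RNA per lymphocyte cannot be told apart.

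All values are log2 expression after the robust multi-average method (RMA), so that a difference of 1 is a 2-fold change. The level of a probe set depends on its own probes, and genes are therefore compared by their differences between arrays and not by their levels. Decorin (Dcn), a fibroblast proteoglycan, lay between 12.10 and 12.71 in the 11 arrays, and Pdgfra, which encodes the sorted antigen, between 9.21 in carcinoma D4 and 11.35. Ptprc, which encodes CD45, was measured at 7.60 to 10.42, and Epcam at 6.02 to 8.01 in normal and hyperplasia and at 8.69 to 9.91 in CAF arrays. The arrays are few, which limits the precision of every value. One property of the values touches every result. Normal D2 and advanced carcinoma D11 mirrored each other around the remaining arrays: their average equalled the average of the 9 remaining ones in each of 35399 probe sets, the gap of their sum being at most 0.000144. For any other of the 55 pairs the corresponding gap reached at least 3.55. Only 10 of the 11 columns were therefore independent, and a gene high in normal D2 had to be low in advanced carcinoma D11. No step in the sources used here accounts for this. Calls were therefore also made with a model term that gives the mirrored arrays a common offset from the other 9 (the mirror term), and with arrays left out. The term does not remove the opposite deviations of the mirrored arrays from each other. Because of how they mirror, it can also hardly move a difference between CAFs and the other arrays.

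Lymphocyte transcripts were carried mainly by hyperplasia D12 and normal D2. These arrays were the highest 2 of 11 for 31 of the 34 genes, a pattern found in 3.48% of all genes, and for all 17 T cell genes. Granzyme B (Gzmb), the NK receptor gene Klrb1c and the transcription factor gene Irf4 were the exceptions. Among the 9 arrays other than the mirrored ones, hyperplasia D12 was the highest for 31 genes, against 9.97% of all genes. Hyperplasia D12 exceeded normal D2 in 29 genes, against 51.6% of all genes, among them 16 of 17 T cell genes but 6 of 9 B cell genes.

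The largest differences between replicates lay in normal and hyperplasia. Normal D2 exceeded normal D5 in 33 of 34 genes, against 45.5% of all genes. The median excess was 1.26, with up to 2.87 in Cd3g, while the median over all genes was -0.02. Hyperplasia D12 exceeded hyperplasia D6 by a median of 1.66 and hyperplasia D7 by a median of 1.26. Hyperplasia D7 in turn exceeded D6 in 31 genes, including all 17 T cell genes, against 48.6% of all genes, by a median of 0.48. The excess was not limited to lymphocyte genes. All 12 luminal epithelial genes were higher in normal D2 than D5 (median 0.58) and in hyperplasia D12 than D6 (1.48) or D7 (0.79). Macrophage genes were higher in 11, 10 and 9 of 12 (medians 1.14, 0.56 and 0.34), and fibroblast genes in 0, 4 and 7 of 12. Within carcinoma, D4 lay above both D3 and D10 in 31 lymphocyte genes, a pattern found in 42.5% of all genes. The median excess of D4 over the 34 genes was 0.42 against D3 and 0.55 against D10. The median difference was 0.13 between carcinoma D3 and D10 and 0.17 between advanced carcinoma D8 and D9. Among the 9 arrays other than the mirrored ones, advanced carcinoma D8 and D9 were the lowest 2 for 21 genes against 7.69% of all genes, and for 13 of 17 T cell genes but 3 of 9 B cell genes. Advanced carcinoma D11 was the lowest of the 11 for 28 genes, against 5.02% of all genes. A low value there goes with a high value in normal D2, and which array sets the other cannot be told.

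**Figure D1:**
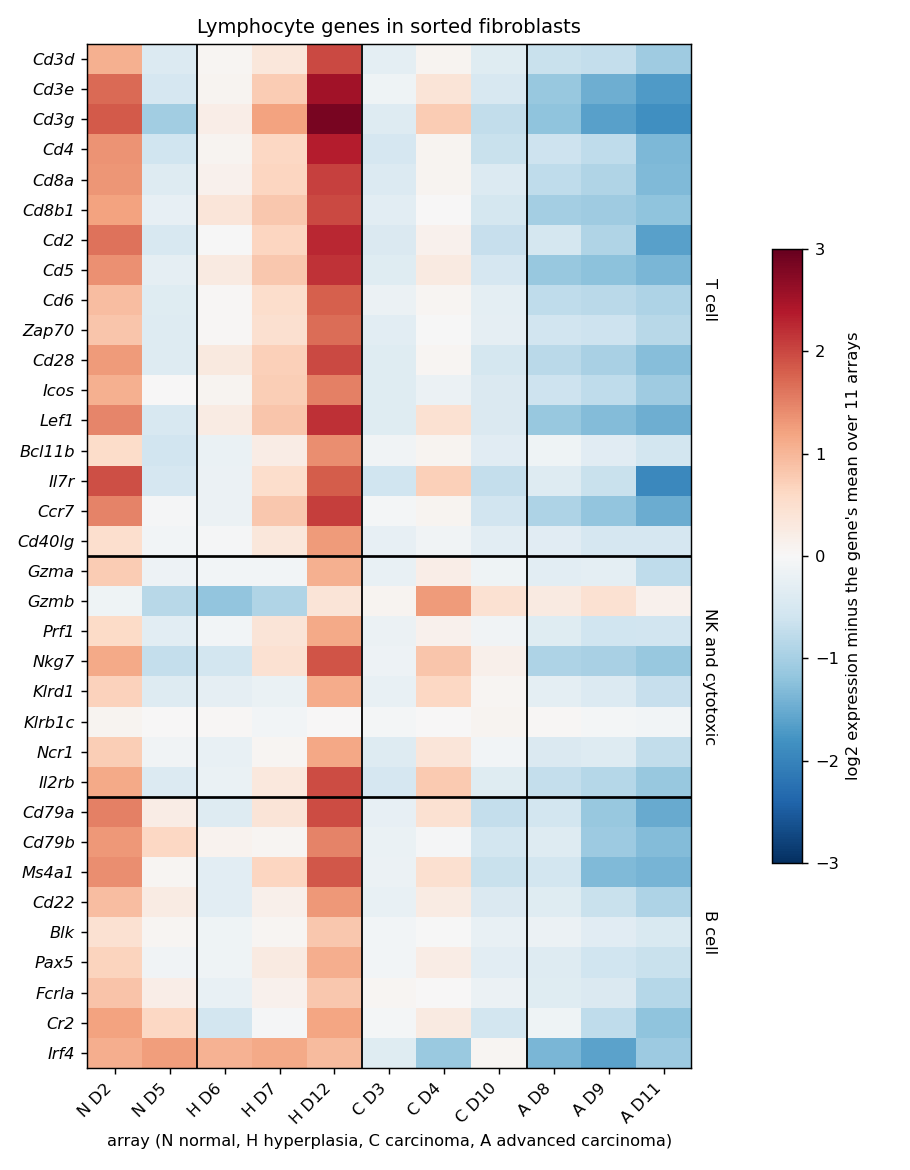
Each row is 1 of the 34 lymphocyte genes and each column 1 array (N normal, H hyperplasia, C carcinoma, A advanced carcinoma). Colour gives log2 expression minus the gene's own mean over 11 arrays, from -3 to 3. Hyperplasia D12 and normal D2 are the reddest columns in 31 genes, and the advanced carcinoma columns are blue for most T and B cell genes, while Gzmb and Irf4 follow other patterns.

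The T and B cell genes differed in how normal D5 compared with other arrays. Normal D5 lay above hyperplasia D6 in all 9 B cell genes and in 1 of 17 T cell genes, Ccr7, against 46.7% of all genes. Expressed as the median deviation from each gene's own mean, T cell genes stood at -0.40 in normal D5 and 0.07 in hyperplasia D6, and B cell genes at 0.23 and -0.23. Normal D5 also lay above carcinoma D10 in 9 of 9 B cell genes, by a median of 0.71, in 10 of 17 T cell genes, by a median of 0.06, and in 0 of 8 NK and cytotoxic genes. These are single arrays, and the difference between lists was not tested.

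The CD3 chains transmit the signal of the T cell receptor, and Cd3g, Cd3d and Cd3e are neighbours on chromosome 9. Cd3g was measured at 10.29 and 7.41 in normal D2 and D5, at 8.65, 9.65 and 11.30 in hyperplasia D6, D7 and D12, at 8.08, 9.21 and 7.72 in carcinoma D3, D4 and D10 and at 7.24, 6.82 and 6.62 in advanced carcinoma D8, D9 and D11. It had the widest range of the 34 genes, 4.68, wider than that of 99.8% of all genes. Every advanced carcinoma array lay below every other array, and carcinoma overlapped normal and hyperplasia. Cd3e followed at 10.04 and 7.85 (normal), 8.43, 9.12 and 10.86 (hyperplasia), 8.22, 8.74 and 7.87 (carcinoma) and 7.21, 6.88 and 6.66 (advanced carcinoma), with arrays in the same order within each stage as given for Cd3g. Its advanced carcinoma arrays were again below all others. Cd3d ranged from 4.56 in advanced carcinoma D11 to 7.61 in hyperplasia D12.

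The promoter of Cd3e, whose lower level in CAFs passed the test among the CD3 genes, is shown, as 300 bases that end shortly after the transcription start in the RefSeq annotation of GRCm38.p6, at chr9:45009562-45009861 on the minus strand. Capitals mark matches, on either strand, to GGAAGT, a core bound by ETS factors that act in lymphocytes.

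Cd3e: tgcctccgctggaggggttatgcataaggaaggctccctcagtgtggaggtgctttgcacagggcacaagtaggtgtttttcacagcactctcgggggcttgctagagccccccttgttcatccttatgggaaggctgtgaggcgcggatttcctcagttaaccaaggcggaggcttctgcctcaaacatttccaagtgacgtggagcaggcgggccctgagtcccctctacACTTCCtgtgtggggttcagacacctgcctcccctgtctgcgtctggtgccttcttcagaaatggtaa

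Promoters were at hand for 21 of the 34 genes. GGAAGT or its complement was found in 7 of 9 T cell promoters (Cd3d, Cd3e, Cd5, Zap70, Lef1, Bcl11b and Il7r), 2 of 6 NK and cytotoxic promoters and 2 of 6 B cell promoters, against 26.5% of the promoters of 27025 genes. A match is a string of letters and not a bound site.

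The co-receptor genes Cd8a and Cd8b1, neighbours on chromosome 6, were both lower in CAFs. Cd8b1 lay at 7.94 and 6.49 in normal, 7.08, 7.54 and 8.71 in hyperplasia, 6.41, 6.73 and 6.21 in carcinoma and 5.72, 5.66 and 5.52 in advanced carcinoma arrays, in the array order above. Only carcinoma D4 rose above a normal or hyperplasia array, normal D5. Cd8a lay at 7.82 and 6.11 (normal), 6.63, 7.14 and 8.54 (hyperplasia), 6.09, 6.57 and 6.08 (carcinoma) and 5.72, 5.59 and 5.18 (advanced carcinoma). Cd4, the co-receptor of helper T cells, lay at 7.99 and 6.05, then 6.73, 7.28 and 9.0, then 6.16, 6.73 and 5.99, and last 6.03, 5.89 and 5.31 in the same order of stages. Carcinoma D3 and D4 were above normal D5, so the CAF and other arrays overlapped.

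Cd8b1 fell by 1.51 in CAFs (standard error 0.37, 2.85-fold, adjusted p = 0.013 in limma), Cd8a by 1.37 (0.0291) and Cd4 by 1.39 (0.0448). Cd3e fell by 1.66 (0.0477), whereas the larger difference of Cd3g, -1.85 with a standard error of 0.67, did not pass (0.0649), nor did Cd3d at -1.12 (0.0511).

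The co-stimulatory genes Icos, Cd40lg and Cd28 were lower in CAFs, Icos and Cd40lg without overlap. Icos, the inducible co-stimulator of activated T cells, was at 7.32 and 6.27 in normal, 6.35, 6.99 and 7.78 in hyperplasia, 5.91, 6.09 and 5.82 in carcinoma and 5.64, 5.50 and 5.20 in advanced carcinoma arrays. All 6 CAF arrays were below all 5 others, at 5.70 ± 0.32 (SD, n = 6) against 6.95 ± 0.64 (SD, n = 5). Cd40lg, the ligand by which helper T cells activate B cells, lay at 5.40 and 4.81, then 4.86, 5.24 and 6.17, then 4.65, 4.79 and 4.59, and last 4.56, 4.38 and 4.39. It too had no overlap, although the gap between carcinoma D4 and normal D5 was small. Cd40lg was dim, with a mean over the 11 arrays above that of 38.0% of all genes.

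Icos fell by 1.25 in CAFs (standard error 0.27, 2.38-fold, adjusted p = 0.00728 in limma) and Cd40lg by 0.74 (0.0268). Cd28, the co-stimulatory receptor of naive T cells, was at 7.53 and 5.87 in normal, 6.55, 6.96 and 8.23 in hyperplasia, 5.88, 6.32 and 5.73 in carcinoma and 5.45, 5.27 and 4.97 in advanced carcinoma arrays. It fell by 1.43 (0.02) with normal D5 inside the carcinoma range.

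Surface and signalling genes were lower too, with overlap between the groups. Cd5, a brake on receptor signalling that neighbours Cd6 on chromosome 19, lay at 7.95 and 6.32 in normal, 6.85, 7.40 and 8.75 in hyperplasia, 6.23, 6.86 and 6.08 in carcinoma and 5.45, 5.35 and 5.22 in advanced carcinoma arrays. It fell by 1.59 (adjusted p = 0.0215 in limma), with carcinoma D4 above normal D5. Cd6 lay at 6.69 and 5.40, then 5.81, 6.29 and 7.55, then 5.59, 5.84 and 5.47, and last 5.01, 4.96 and 4.84, and fell by 1.06 (0.0439). The adhesion gene Cd2 lay at 8.16 and 6.06, then 6.52, 7.17 and 8.79, then 6.10, 6.66 and 5.85, and last 6.0, 5.64 and 4.90, and fell by 1.48 (0.0415). In both genes normal D5 was below carcinoma D3 and D4. The receptor kinase gene Zap70 lay at 6.46 and 5.22, then 5.65, 6.10 and 7.30, then 5.31, 5.60 and 5.36, and last 5.05, 5.0 and 4.78, and fell by 0.96 (0.0446). Its normal D5 was below all 3 carcinoma arrays.

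Genes of naive and recirculating T cells completed the list. Ccr7, the chemokine receptor that brings lymphocytes into lymph nodes, was at 9.73 and 8.20 in normal, 8.06, 9.03 and 10.30 in hyperplasia, 8.17, 8.31 and 7.66 in carcinoma and 7.30, 7.04 and 6.73 in advanced carcinoma arrays. It fell by 1.53 (adjusted p = 0.0256 in limma), and carcinoma overlapped normal D5 and hyperplasia D6. The transcription factor gene Lef1 lay at 8.21 and 6.28, then 6.99, 7.58 and 8.95, then 6.39, 7.20 and 6.31, and last 5.61, 5.44 and 5.29, and fell by 1.56 (0.0357). Its 3 carcinoma arrays were above normal D5, and its 3 advanced carcinoma arrays were the lowest of all. Il7r, the receptor of the survival cytokine IL-7, differed by -1.32 (0.0908), with carcinoma D4 at 8.34 above 3 normal or hyperplasia arrays. Bcl11b, a factor of T lineage commitment, differed by -0.50 (0.229) and was not lower in advanced carcinoma D8, at 6.44, than in normal D5, at 5.98.

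**Figure D2:**
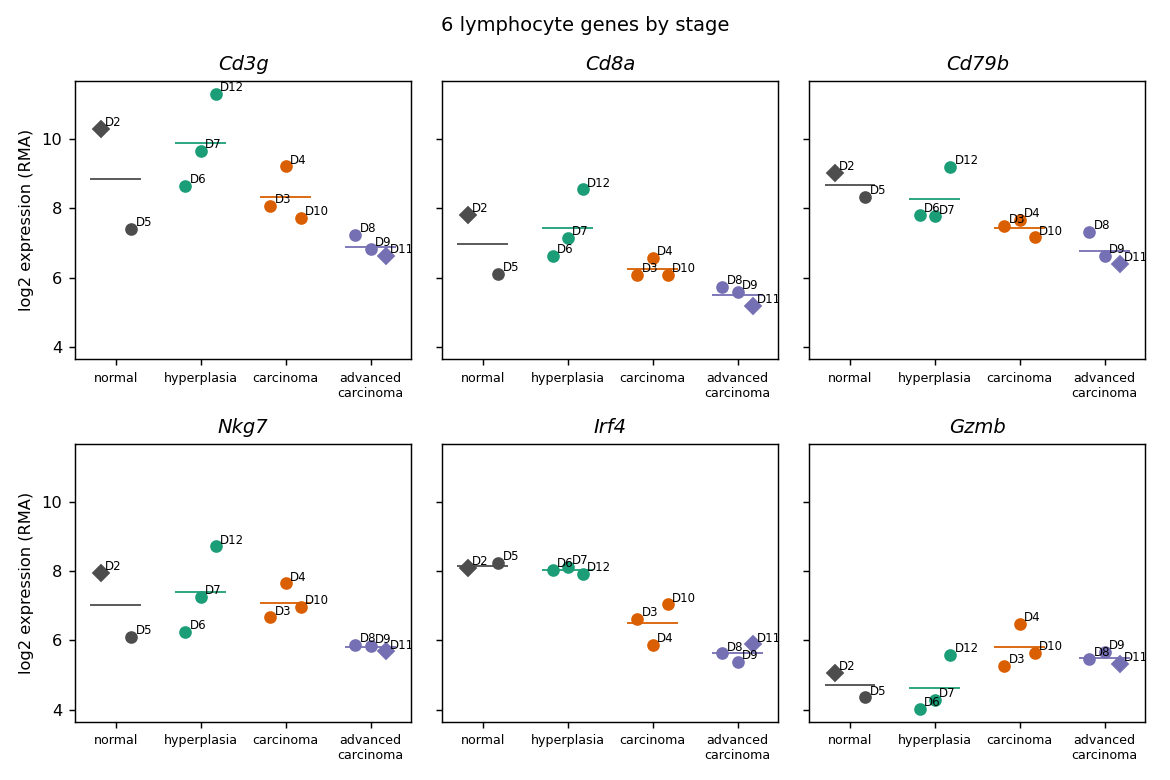
Log2 expression of Cd3g, Cd8a, Cd79b, Nkg7, Irf4 and Gzmb in each array by stage. Points are arrays with their names, horizontal lines are stage means, and the mirrored arrays (normal D2, advanced carcinoma D11) are drawn as diamonds. Cd3g and Nkg7 spread widely within normal and hyperplasia, the 5 normal and hyperplasia arrays of Irf4 lie between 7.93 and 8.23, and Gzmb is highest in carcinoma D4.

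In all, 13 of 17 T cell genes were lower in CAFs at an adjusted p under 0.05, and all 17 differences were negative, from -1.85 to -0.50 with a median of -1.39, while the median over all genes was -0.04. Over the 34 lymphocyte genes 17 were lower, against 12.8% of all genes, and 1 was higher, against 12% of all genes. By the study's cut-offs (fold change above 1.5, p below 0.05 before adjustment), here applied to limma p, 27 genes were lower, against 5.59% of all genes. CAF arrays lay below all others in 4 of 34 genes (Icos, Cd40lg, Cd79b and Irf4), against 7.14% of all genes.

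The size of these differences and the number of calls rested on a few arrays. With the mirror term, 9 of 34 genes were lower, against 9.84% of all genes: Cd8a, Cd8b1, Cd5, Cd28, Icos, Ccr7, Cd40lg, Cd79b and Irf4. Leaving out normal D2 and hyperplasia D12, the highest arrays of the T cell genes, had to shrink the T cell differences. They became, for example, -1.0 in Cd8b1 (adjusted p = 0.052 in limma) and -0.87 in Cd3e (0.224). In that fit 3 of 34 genes were lower, Icos, Cd40lg and Irf4, against 10.2% of all genes, so the count was not above that share. Without normal D2, hyperplasia D12 and advanced carcinoma D11, the median difference of T cell genes was -0.61. Of the 34 genes only Icos at -0.75 (0.0355) and Irf4 at -2.03 (0.0116) were then lower, against 7.76% of all genes, again not above that share. Leaving out any single one of normal D2, hyperplasia D7 or D12, carcinoma D3 or D10 or advanced carcinoma D8, D9 or D11 gave 6 to 12 called genes in place of 18, and leaving out carcinoma D4 gave 26. What set normal D2 and hyperplasia D12 apart was not tested.

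**Figure D3:**
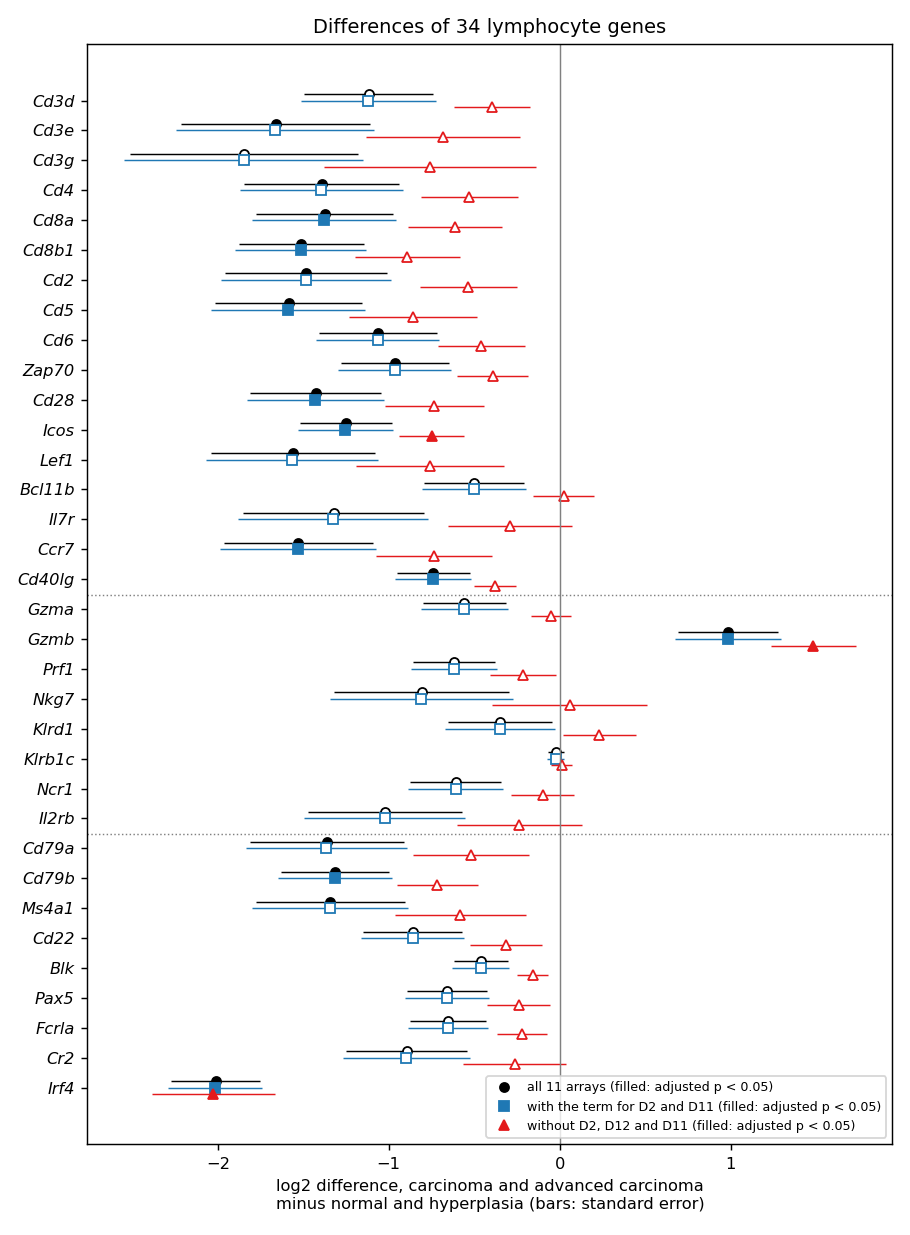
Log2 difference of each of the 34 genes between CAFs and normal and hyperplasia fibroblasts, with standard error bars, in all 11 arrays (circles), with the mirror term (squares) and without normal D2, hyperplasia D12 and advanced carcinoma D11 (triangles); filled symbols mark an adjusted p under 0.05. Most T and B cell differences move toward 0 when the 3 arrays are left out, whereas Irf4 stays at -2.03 and Gzmb rises from 0.98 to 1.48. The move of Gzmb follows from the choice of arrays, since normal D2 and hyperplasia D12 are its highest normal and hyperplasia arrays.

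The fall of T cell genes was largest between advanced carcinoma and hyperplasia. In this comparison 12 of 34 genes were lower, against 6.01% of all genes, 10 of them T cell genes: Cd3e, Cd3g, Cd8a, Cd8b1, Cd5, Cd6, Cd28, Icos, Lef1 and Ccr7, with Cd79b and Irf4 from the B cell list. Cd3g went from 9.87 ± 1.34 in hyperplasia to 6.89 ± 0.31 in advanced carcinoma (SD, n = 3 each), a difference of -2.97 (standard error 0.82, 7.86-fold, adjusted p = 0.0415 in limma). Cd8b1 went from 7.78 ± 0.84 to 5.63 ± 0.10, a difference of -2.15 (0.0146). The median difference of T cell genes was -1.94, and the 3 arrays of advanced carcinoma were below all 3 of hyperplasia in 16 of 17 T cell genes, 6 of 8 NK and cytotoxic genes and 8 of 9 B cell genes, in all 30 of 34 against 23.1% of all genes.

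The T cell calls of this comparison were also made without the highest arrays. With the mirror term, 8 of 34 genes were lower, against 3.81% of all genes, 7 of them T cell genes. Without normal D2 and hyperplasia D12, 16 genes were lower, against 4.47% of all genes. These arrays are the highest in most of the 34 genes, so this count and the next are not independent support. Without these and advanced carcinoma D11, 11 genes were lower, against 3.17% of all genes, namely Irf4 and 10 T cell genes: Cd3d, Cd3e, Cd8a, Cd8b1, Cd5, Cd6, Zap70, Cd28, Icos and Lef1. Of the 10 T cell genes called in all arrays, 8 were among them. Differences were smaller then, with a median of -1.10 for T cell genes, -1.63 for Cd8b1 (adjusted p = 0.0195 in limma) and -1.73 for Cd3e (0.0383). The last fit holds 2 arrays of hyperplasia and 2 of advanced carcinoma. Single arrays also decided the count in the full set, which was 1 without advanced carcinoma D8 or D9, 2 without advanced carcinoma D11 or hyperplasia D7, 5 without hyperplasia D12 and 6 without carcinoma D3.

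Between hyperplasia and normal fibroblasts no lymphocyte gene passed in limma or in the adjusted contrasts that stand in for the test of the methods. Of 34 genes 0 passed, against 0% of all genes, and 0 had an unadjusted p under 0.05, against 4.22% of all genes. T cell genes differed by a median of 0.50 and B cell genes by -0.21, but the normal arrays differed from each other by more than that. No gene was lower in all hyperplasia arrays than in both normal arrays, against 7.8% of all genes. Between advanced carcinoma and carcinoma 0 genes passed in either test, against 0% of all genes, with 1, Irf4, at an unadjusted p under 0.05. All 34 differences were negative there, with a median of -0.64, and advanced carcinoma arrays were below all carcinoma arrays in 21 genes, against 5.77% of all genes, 13 of them T cell genes.

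Against normal fibroblasts, advanced carcinoma showed large differences that seldom passed, with normal arrays 1.26 apart in the median gene. Cd79b and Irf4 were lower, 2 of 34 against 1.71% of all genes. With the mirror term, Irf4 alone was lower, 1 of 34 against 0.717% of all genes. The count was 0 without normal D5, 6 without hyperplasia D12, 3 without carcinoma D4, 2 without carcinoma D10 and 1 without any single one of the remaining arrays. Cd3g differed by -1.95 (adjusted p = 0.247 in limma), with a 95% interval from -4.12 to 0.21. Advanced carcinoma arrays lay below both normal arrays in 29 of 34 genes, against 26.5% of all genes, and above both in 1, Gzmb, against 21.5% of all genes. These groups hold the mirrored arrays. Carcinoma was lower than normal in Irf4 alone, 1 of 34 against 0.145% of all genes, and lower than hyperplasia in Irf4 alone, 1 of 34 against 4.37% of all genes. Carcinoma arrays were below all normal arrays in 8 genes, against 18.8% of all genes, 6 of them B cell genes, and below all hyperplasia arrays in 8, against 18% of all genes, 6 of them T cell genes.

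Most NK and cytotoxic genes were high in the same arrays as T cell genes, and none passed as lower in CAFs. Nkg7, a granule protein of NK and cytotoxic T cells, was at 7.94 and 6.10 in normal, 6.25, 7.26 and 8.71 in hyperplasia, 6.66, 7.64 and 6.96 in carcinoma and 5.87, 5.83 and 5.68 in advanced carcinoma arrays. Carcinoma, at 7.09 ± 0.50 (SD, n = 3), lay within the range of normal and hyperplasia, and advanced carcinoma, at 5.80 ± 0.10 (SD, n = 3), was below every other array. In CAFs together Nkg7 differed by -0.81 (standard error 0.51, adjusted p = 0.27 in limma), and without normal D2, hyperplasia D12 and advanced carcinoma D11 by 0.06.

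Il2rb, the IL-2 and IL-15 receptor chain of NK and activated T cells, was at 7.45 and 5.90 in normal, 6.12, 6.64 and 8.27 in hyperplasia, 5.83, 7.10 and 5.96 in carcinoma and 5.60, 5.45 and 5.19 in advanced carcinoma arrays. It differed by -1.02 (adjusted p = 0.118 in limma), with carcinoma D4 above 3 of the 5 normal and hyperplasia arrays. Klrd1, which encodes CD94, was at 6.95 and 5.88, then 5.97, 6.05 and 7.36, then 6.02, 6.86 and 6.31, and last 5.97, 5.84 and 5.56, and differed by -0.35 (0.431). Advanced carcinoma D8 was level with hyperplasia D6 in this gene.

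Perforin (Prf1), granzyme A (Gzma) and the NK receptor gene Ncr1 differed by -0.62, -0.56 and -0.61 without passing (adjusted p from 0.0807 to 0.119 in limma). Klrb1c, which encodes NK1.1, stayed between 3.90 and 4.07 in every array, a range narrower than that of all but 2.54% of genes. In CAFs 0 of 8 NK and cytotoxic genes were lower at an adjusted p under 0.05 in limma. The same held in the adjusted contrasts that stand in for the test of the methods. At an unadjusted p under 0.05 in limma, 4 were lower (Prf1, Gzma, Ncr1 and Il2rb). Of these, Prf1, Ncr1 and Il2rb also passed the fold cut-off of 1.5 and so were lower by the study's cut-offs. An unadjusted p under 0.05, in either direction, was found in 38.4% of all genes. Hyperplasia D12 and normal D2 were the highest arrays for 6 of 8.

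Granzyme B (Gzmb), the granule protease of activated killer cells, went the other way. It was a dim gene, with a mean over the 11 arrays above that of 43.7% of all genes. It was at 5.05 and 4.35 in normal, 4.02, 4.28 and 5.57 in hyperplasia, 5.27, 6.47 and 5.65 in carcinoma and 5.46, 5.66 and 5.33 in advanced carcinoma arrays. Only hyperplasia D12 reached the CAF range, and carcinoma D4 stood above all other arrays. CAFs were at 5.64 ± 0.44 (SD, n = 6) against 4.65 ± 0.64 (SD, n = 5), a rise of 0.98 (standard error 0.29, 1.98-fold, adjusted p = 0.0321 in limma). When normal D2 and hyperplasia D12 were left out the rise was 1.42 (0.00556), and when advanced carcinoma D11 was left out as well it was 1.48 (0.00908). Normal D2 and hyperplasia D12 were above the remaining normal and hyperplasia arrays in Gzmb, and advanced carcinoma D11 was below the CAF mean. Leaving them out therefore had to enlarge the rise, and these values are not independent support. Between single stages the rise did not pass in all 11 arrays, at 1.17 from hyperplasia to carcinoma (0.116) and 0.86 from hyperplasia to advanced carcinoma (0.202).

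The promoters of Nkg7, at chr7:43436888-43437187 on the plus strand, and Gzmb, at chr14:56262285-56262584 on the minus strand, are shown because the pair belongs to cytotoxic granules and had different patterns. Capitals mark matches on either strand to TGTGGT, a core bound by RUNX factors, and to TGANTCA, the letters of an AP-1 site.

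Nkg7: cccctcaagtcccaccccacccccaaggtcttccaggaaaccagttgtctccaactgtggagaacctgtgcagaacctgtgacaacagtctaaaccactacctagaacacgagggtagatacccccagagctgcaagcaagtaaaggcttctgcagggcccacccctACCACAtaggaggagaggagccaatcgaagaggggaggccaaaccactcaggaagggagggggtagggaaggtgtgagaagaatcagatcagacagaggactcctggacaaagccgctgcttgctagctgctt

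Gzmb: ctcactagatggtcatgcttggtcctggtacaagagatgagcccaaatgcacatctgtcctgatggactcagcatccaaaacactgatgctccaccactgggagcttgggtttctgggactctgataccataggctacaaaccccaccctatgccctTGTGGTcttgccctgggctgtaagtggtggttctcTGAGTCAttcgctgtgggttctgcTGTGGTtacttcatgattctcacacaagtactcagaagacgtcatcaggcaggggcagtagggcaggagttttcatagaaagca

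TGTGGT or its complement was found in all 6 NK and cytotoxic promoters at hand (Gzma, Gzmb, Prf1, Nkg7, Klrb1c and Ncr1), in 2 of 9 T cell promoters and in 0 of 6 B cell promoters, against 18.9% of all promoters. TGANTCA was found in Gzmb alone among the 21, against 9.0% of all promoters. Klrb1c, which did not vary, held TGTGGT too.

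Of 9 B cell genes 4 were lower in CAFs, against 12.8% of all genes: Cd79b and Cd79a, the signalling chains of the antigen receptor, Ms4a1 and Irf4. Irf4 had another pattern over the arrays, given below. Cd79b, the signalling chain of the B cell receptor, was at 9.01 and 8.32 in normal, 7.81, 7.77 and 9.20 in hyperplasia, 7.5, 7.67 and 7.16 in carcinoma and 7.31, 6.62 and 6.40 in advanced carcinoma arrays. All CAF arrays were below all others, with carcinoma D4 just below hyperplasia D7. Its partner Cd79a was at 8.16 and 6.87, then 6.26, 7.04 and 8.61, then 6.39, 7.09 and 5.92, and last 6.10, 5.52 and 5.13, and overlapped through carcinoma D3 and D4.

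Ms4a1, which encodes CD20, was at 8.75 and 7.40 in normal, 7.05, 8.00 and 9.23 in hyperplasia, 7.17, 7.83 and 6.69 in carcinoma and 6.80, 6.02 and 5.96 in advanced carcinoma arrays. In this gene too carcinoma D4 lay above normal D5 and hyperplasia D6. Cd79b fell by 1.31 in CAFs (standard error 0.32, 2.49-fold, adjusted p = 0.0129 in limma), Cd79a by 1.36 (0.0468) and Ms4a1 by 1.34 (0.0451). The inhibitory receptor gene Cd22, the kinase gene Blk, the B lineage factor gene Pax5, Fcrla and the complement receptor gene Cr2 differed by -0.86 to -0.46 or, in Cr2, by -0.89, and none of them passed (0.0504 to 0.0872). In Cr2 normal D5 was high, at 7.02 against 5.85 in hyperplasia D6 and 6.36 in hyperplasia D7.

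With the mirror term, Cd79b remained lower (adjusted p = 0.0213 in limma) and Cd79a (0.0657) and Ms4a1 (0.064) did not pass. Without normal D2 and hyperplasia D12 no B cell gene but Irf4 was lower, Cd79b being at -0.86 (0.0623). B cell genes had a median difference of -0.89 in all 11 arrays and of -0.31 without normal D2, hyperplasia D12 and advanced carcinoma D11.

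The promoter of Cd79a, at chr7:24897247-24897546 on the plus strand, is given beside that of Irf4, at chr13:30748983-30749282 on the plus strand, since these B cell list genes had different patterns over the arrays. Capitals mark GGAAGT, which is present in the first and not in the second.

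Cd79a: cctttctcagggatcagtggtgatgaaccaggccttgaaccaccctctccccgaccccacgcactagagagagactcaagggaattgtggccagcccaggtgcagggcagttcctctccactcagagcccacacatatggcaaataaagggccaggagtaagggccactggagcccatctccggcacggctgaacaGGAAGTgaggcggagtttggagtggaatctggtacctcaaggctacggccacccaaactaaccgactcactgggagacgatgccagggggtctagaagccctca

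Irf4: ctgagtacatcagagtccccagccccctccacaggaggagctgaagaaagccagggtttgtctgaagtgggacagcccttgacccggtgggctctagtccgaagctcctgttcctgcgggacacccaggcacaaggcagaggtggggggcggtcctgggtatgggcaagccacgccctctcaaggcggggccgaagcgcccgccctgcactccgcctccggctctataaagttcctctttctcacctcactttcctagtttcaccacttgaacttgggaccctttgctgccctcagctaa

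The octamer ATGCAAAT, a B cell promoter element, was found in none of the 21 promoters, against 2.0% of all.

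Irf4 had neither of the high arrays of the other genes. It encodes a transcription factor of plasma cells and activated lymphocytes that dendritic cells and macrophages also use. It was at 8.08 and 8.23 in normal, 8.02, 8.13 and 7.93 in hyperplasia, 6.61, 5.87 and 7.04 in carcinoma and 5.62, 5.37 and 5.88 in advanced carcinoma arrays. The 5 normal and hyperplasia arrays lay close together, with hyperplasia D12 the lowest of them, and every CAF array was lower. CAFs were at 6.07 ± 0.63 (SD, n = 6) against 8.08 ± 0.12 (SD, n = 5), a fall of 2.01 (standard error 0.26, 4.03-fold, adjusted p = 0.000549 in limma). The fall was 2.02 with the mirror term (0.00138), which can hardly move this difference. Without the mirrored arrays and hyperplasia D12 the fall was 2.03 (0.0116). Irf4 was lower than hyperplasia by 1.52 in carcinoma (0.0122) and by 2.40 in advanced carcinoma (0.00262), and lower than normal by 1.65 (0.0404, and 0.13 with the mirror term) and 2.53 (0.00546). Without normal D2, hyperplasia D12 and advanced carcinoma D11 the adjusted p was 0.0206 for advanced carcinoma and 0.0603 for carcinoma against hyperplasia, and 0.0885 for advanced carcinoma against normal. Advanced carcinoma and carcinoma differed by -0.88 without passing (0.884).

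Further genes of the same cells were counted in the same way. Of 18 further T cell genes 11 were lower in CAFs, of 11 further NK genes 2 and of 13 further B cell genes 3, against 12.8% of all genes. Gata3 was higher, against 12% of all genes. With the mirror term 9, 2 and 0 genes of these lists were lower, against 9.84% of all genes, with Gata3 still higher. The NK and B cell counts were thus at most a few genes above the share of all genes. The co-stimulatory receptor gene Tnfrsf4, which encodes OX40, fell by 0.83 without overlap (adjusted p = 0.00091 in limma) and Tnfrsf18, which encodes GITR, by 0.92 (0.0109). Gata3, a factor of helper T cells and of luminal epithelium, rose by 1.95 without overlap (0.0036). The chemokine gene Ccl5, which T and NK cells secrete, fell by 1.66 without overlap (0.00866), interferon gamma (Ifng) by 0.29 (0.0215), and Klre1 differed by -0.15 (0.0795). Of the B cell genes, the factor gene Spib fell by 1.18 (0.0364), Fcer2a, which encodes CD23, by 1.24 (0.0382) and the inhibitory receptor gene Btla by 0.77 (0.0401). Without normal D2, hyperplasia D12 and advanced carcinoma D11, 3 of these further genes were lower, Tnfrsf4, Tnfrsf18 and Sh2d1a, against 7.76% of all genes, and 3 were higher, Gata3, Xcl1 and Ly86, against 8.26% of all genes. Sh2d1a, Xcl1 and Ly86 were named after their values were seen.

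Lists of other cell types were counted too, against shares of 12.8% lower and 12% higher among all genes in CAFs. The 10 pan-leukocyte genes had median deviations of 1.03 in normal D2 and 1.36 in hyperplasia D12, as the lymphocyte genes had, but -0.09 and -0.03 in advanced carcinoma D8 and D9, where T cell genes had -0.76 and -0.89. In CAFs 1 of the 10 was lower, Ptprcap, and Ptprc differed by -0.82 (adjusted p = 0.191 in limma). Without normal D2, hyperplasia D12 and advanced carcinoma D11 their median difference was 0.11, against -0.61 for T cell genes. Of 12 macrophage genes 10 were higher in CAFs, with a median difference of 2.20, and Adgre1, which encodes the excluded antigen F4/80, was at 3.73 to 5.07 in normal and hyperplasia and 5.18 to 7.66 in CAF arrays. Carcinoma D4, the highest carcinoma array for 31 lymphocyte genes, was also high in macrophage genes, at 1.64, and low in fibroblast genes, at -1.49, as median deviations. Of 12 luminal genes 11 were higher and of 12 fibroblast genes 2 were lower, Pi16 and Cd34. These CAF counts of fibroblast and pan-leukocyte genes were near the share of all genes. Between stages more fibroblast genes were lower without overlap. In advanced carcinoma 8 of 12 were below normal and 9 below hyperplasia, against 26.5% and 23.1% of all genes. In carcinoma 8 of 12 were below hyperplasia, against 18% of all genes, and 1 below normal, against 18.8%. Of 10 dendritic cell genes 3 were lower in CAFs, Flt3, Zbtb46 and Ccl22, and 2 were higher, Itgax and Ccl17. Their median deviation was 0.31 in normal D2, 0.38 in hyperplasia D12 and -0.31 to -0.15 in advanced carcinoma, and 6 of 10 were lower without overlap in advanced carcinoma than in normal and than in hyperplasia, against 26.5% and 23.1% of all genes. Of the 9 genes of lymph node stroma and high endothelium 1 was higher, Glycam1, and 1 lower, Cxcl13, and their median deviation stayed between -0.07 and 0.12 in every array. Glycam1, which mammary epithelium also uses, was higher by 2.35 in normal D2 than in normal D5 and by 2.06 in hyperplasia D12 than in hyperplasia D6. Ptprcap, Pi16, Cd34, the dendritic cell genes, Glycam1 and Cxcl13 were named after their values were seen. The part of these cells, of the shares they take of each array and of age in the lymphocyte differences was not tested.

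**Figure D4:**
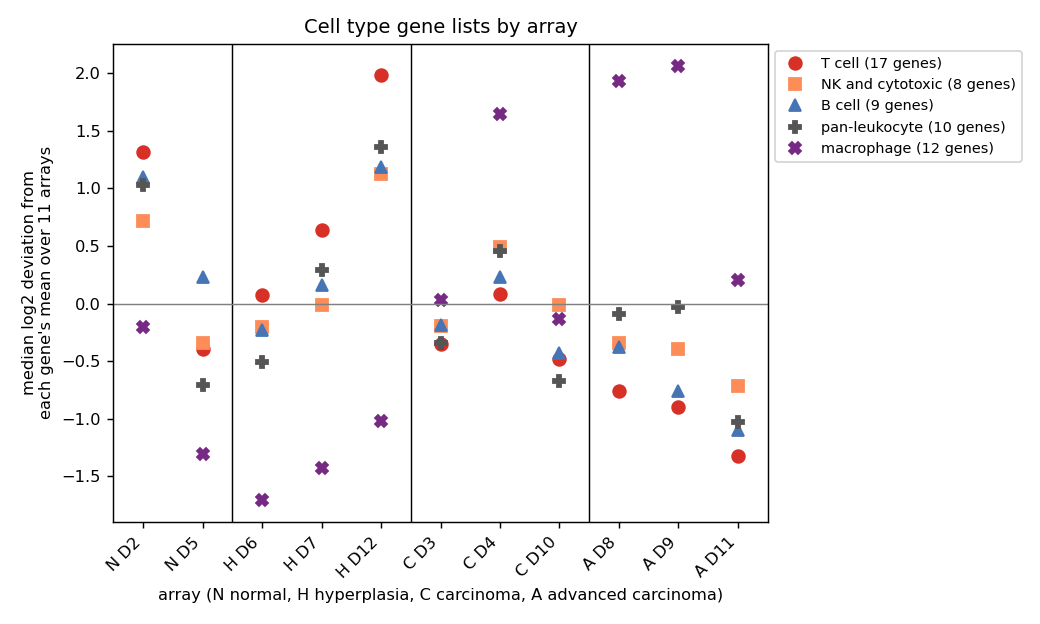
Median log2 deviation from each gene's own mean over 11 arrays, for T cell, NK and cytotoxic, B cell, pan-leukocyte and macrophage genes in each array (N normal, H hyperplasia, C carcinoma, A advanced carcinoma). The 3 lymphocyte lists and the pan-leukocyte list are high in normal D2 and hyperplasia D12. In advanced carcinoma D8 and D9 macrophage genes are at 1.93 and 2.06 and T cell genes at -0.76 and -0.89.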

How the data were processed

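Fibroblasts sorted from mouse mammary tissue were profiled on 11 arrays. According to the methods and the submitters' processing notes, the authors summarised and normalised the arrays with RMA in Partek Genomics Suite 6.5, and 35399 deposited probe sets hold log2 expression, with array medians of 5.28 to 5.39. Of these, 21789 carried 1 gene symbol in the platform annotation, 1621 several and 11989 none, and the brightest probe set was kept for 999 genes with more than 1, which left 19938 genes. Image files were not used here. Since RMA scales arrays to each other, a difference is relative to the other genes of an array.

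The stage contrasts came from 1 limma fit (version 3.58.1, R 4.3.3) over all 11 arrays, and the CAF contrast from a fit with 2 groups. P-values were adjusted by Benjamini-Hochberg over all genes in each of 7 comparisons and called below 0.05. Residual degrees of freedom were 7, 9 for 2 groups and 6 with the mirror term. P-values measure the spread between cohorts within a group. In the CAF contrast this spread also holds the differences between the 2 stages of each group. The degrees of freedom count all 11 arrays as independent, although the mirrored arrays are not. Members and lists were chosen with earlier results of these data known. All members could be named. Of other T, NK and B cell genes the 3 with the smallest p per list were named, with sort markers and the brightest genes of other lists. Alternatives were median-centred arrays, quantile normalisation, dim genes left out, every probe set, one-way ANOVA contrasts, array weights, the study's threshold and each array left out in turn. The ANOVA contrasts stand in for the test of the methods, but with adjusted p and, for CAFs, 2 groups. The study's threshold was applied to limma p. The mirror term and the fits without the mirrored arrays or without normal D2 and hyperplasia D12 were planned from earlier work on these data, and the fit without all 3 arrays was chosen after seeing the data. The code was tested on simulated data. Promoters are those of RefSeq on GRCm38.p6, searched on both strands.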

Additional observations from a re-analysis of the deposited data

Results flagged for a closer look

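Granzyme B (Gzmb) in carcinoma D4 was measured at 6.47, far from the other CAF arrays, the nearest of which was at 5.66. The gap was 0.675 of the range of the 6 CAF arrays. Of 68 groups of arrays examined, 1 stood apart in this way, and chance gives about 1 in 20.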

How the results depend on the processing

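For CAFs against the rest, 18 of 34 lymphocyte genes passed. With dim genes left out, 15 of these 18 still passed, while Cd40lg, Zap70 and Gzmb were too dim to be tested. The count was 28 at the study's threshold, 29 with median-centred arrays, 11 with every probe set, 6 in ANOVA contrasts, 30 with array weights, 10 with the mirror term, 3 without normal D2 and advanced carcinoma D11, 4 without normal D2 and hyperplasia D12, 3 without all 3 of these and 6 to 26 with each array left out. For advanced carcinoma against hyperplasia, 12 passed, and under the same settings 28, 24, 8, 2, 20, 8, 6, 17 and 11, and 1 to 18 with each array left out. Against normal, 2 passed in advanced carcinoma, and under the same settings 17, 4, 1, 1, 13, 1, 0, 0 and 0, and 0 to 6 with each array left out. In carcinoma against normal 1 passed, with 3 at the study's threshold, 0 with every probe set, in ANOVA, with the mirror term and in the 3 fits without arrays, and 0 to 1 with each array left out. In carcinoma against hyperplasia 1 passed, with 8 at the study's threshold, 2 with median-centred arrays, 3 without normal D2 and hyperplasia D12, 0 without all 3 arrays and 0 to 2 with each array left out. In advanced carcinoma against carcinoma 0 passed, with 1 at the study's threshold and 1 with array weights. Quantile normalisation gave 23, 18 and 3 in the first 3 comparisons. In single genes, 433 of 711 alternatives kept the call, 278 lost it and 0 reversed. Icos in CAFs, and Irf4 in CAFs and between advanced carcinoma and hyperplasia, passed in all alternatives run. The cause of the changes was not tested. No paired analysis was possible because the stages share no replicate number. The number of arrays limits what can be detected.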
